A study of Mus musculus with 11 samples.

Results

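The short isoform of the de novo DNA methyltransferase Dnmt3a, Dnmt3a2, had been put back into mouse embryonic stem (ES) cells without DNA methyltransferases, and the messenger RNA of this line was compared with that of its parent. Members were chosen by genotype: 2 libraries labelled TKO+Dnmt3a2 and the 1 library labelled TKO, 3 of the 11 libraries of the study. TKO is the line knocked out for Dnmt1, Dnmt3a and Dnmt3b, so all 3 libraries share that genotype, and they share the J1 origin and the strain 129S4/SvJae with the wild type (WT). All lines were grown on a feeder layer of irradiated mouse embryonic fibroblasts in medium with serum and leukaemia inhibitory factor, with no treatment named. For context the report uses WT, TKO+Dnmt3a1 (the long isoform put back, 2 libraries), TKO+Dnmt3b1, and the pair DKO (without Dnmt3a and Dnmt3b) and DKO+Dnmt3a2, each with 1 library. The labels name no promoter or vector for the enzyme, do not say whether a line is 1 clone, and do not say whether the 2 libraries of TKO+Dnmt3a2 came from separate cultures. A p-value here therefore measures only the spread between libraries, which may be technical, and a line cannot be told apart from its genotype.

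In mammals methylation of cytosine at CpG dinucleotides is written by Dnmt3a and Dnmt3b and copied to the daughter strand after replication by Dnmt1. Dnmt3a2 starts from an internal promoter, lacks the N-terminal part of the long isoform and is the main Dnmt3a form of ES cells and of germ cells, where it acts with the inactive partner Dnmt3l. Promoters of genes that silence transposons in germ cells, the differentially methylated regions of imprinted genes and several X-linked gene families are well-known places where loss of methylation raises transcription. A methyltransferase put back without Dnmt1 can write methylation but has no maintenance enzyme to copy it.

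Values are RPKM, read numbers scaled to transcript length and library size, as the authors deposited them, and differences are on the scale log2(RPKM + 0.5), which understates changes of low genes. Depth, estimated from the step between low RPKM values, was 25.9 M reads (M, mega) in TKO, 22.8 M in TKO+Dnmt3a2 replicate 1 and 26.9 M in replicate 2, within the range of 21.7 to 32.8 M over the 11 libraries. All 10 ES cell markers checked, among them Pou5f1, Sox2 and Nanog, were at 1 RPKM or more in every library. Replicate 2 was closer to TKO and TKO+Dnmt3a1 than to replicate 1: across the 14229 genes tested, which are not independent replicates, r was 0.974 between them, 0.976 between replicate 2 and TKO, and 0.987 between replicate 2 and TKO+Dnmt3a1 replicate 1. Replicate 1 was farther from TKO (0.968) than from replicate 2. The 30 fibroblast markers, which the feeder layer expresses, summed to 1120 RPKM in TKO, 1638 in replicate 1 and 1006 in replicate 2, with 0 markers at 0. The 19 macrophage markers summed to 59.7, 82.1 and 85.3 RPKM. In RNA from whole cultures, fewer cells of a type and less RNA per cell cannot be told apart.

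Transcripts of Dnmt3a itself were higher in both add-back libraries than in the parent, and unequal between them. Dnmt3a stood at 4.24 RPKM in TKO, 21.8 in replicate 1 and 11.1 in replicate 2, and at 22.7 RPKM in WT. The 2 libraries lie above TKO by 2.24 and 1.29 on the log2 scale, and replicate 2 is at about the level of DKO+Dnmt3a2 (11.4 RPKM). The fitted difference was 1.76 ± 0.39 (SE) and did not pass (limma, adjusted p = 0.532). The deposited value is 1 figure per gene, so reads of either isoform and of any transcript left by the knockout allele are counted together. Dnmt1 remained low, at 8.13 and 9.80 RPKM beside 6.73 in TKO and 71.0 in WT. Dnmt3b stood at 44.4 and 32.9 RPKM beside 45.3 in TKO. It is knocked out in this line too, so its reads include any transcript left by the knockout allele. Dnmt3l stood at 391 and 416 RPKM beside 391 in TKO and 97.0 in WT. Of the 11 enzymes and cofactors tested, 5 were higher than TKO in both libraries and 3 were lower. Of the 19 genes of 5-methylcytosine oxidation and base excision repair, 4 were higher in both and 9 were lower. Tet1 stood at 38.4 and 37.0 RPKM (44.9 in TKO), Tet2 at 12.5 and 12.4 (15.4 in TKO) and Tet3 at 2.63 and 2.22 (3.88 in TKO). Of the 10 methyl-CpG readers, 7 were higher in both libraries and 0 lower (median difference 0.25, against 0.02 over all genes tested). The median was 0.44 in replicate 1 and 0.05 in replicate 2, so its size rests on replicate 1. Zbtb33, which encodes the zinc finger reader Kaiso, stood at 5.05 and 4.60 RPKM beside 3.45.

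Across all genes, no difference between TKO+Dnmt3a2 and TKO passed the test. Limma called 0 of 14229 genes (0%), with 1227 genes at an unadjusted p under 0.05 and a smallest Benjamini-Hochberg adjusted p of 0.324. No gene named for this comparison is therefore said to have changed, and the values of each library are given. As a description without a test, 114 genes (0.801%) were at least 2-fold higher than TKO in both libraries and 110 genes (0.773%) were at least 2-fold lower. Both differences rest on the same TKO library, so a value at which TKO alone stands apart counts in both. Between the 2 replicates themselves, 287 genes were at least 2-fold higher and 273 at least 2-fold lower in replicate 1. Genes of miRNAs and small nucleolar RNAs, which are short and hold few reads in polyA libraries, made up 41 of the 114 and 23 of the 110. For these 64, the median of the highest read number among the 3 libraries was 3. Without them 73 genes were higher and 87 lower, of 13771 (0.53% and 0.632%). TKO was the highest of all 11 libraries for 66 of the 87 (13.1% of all such genes have TKO highest) and the lowest for 40 of the 73 (7.04%), which the choice of genes partly brings about.

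**Figure D1:**
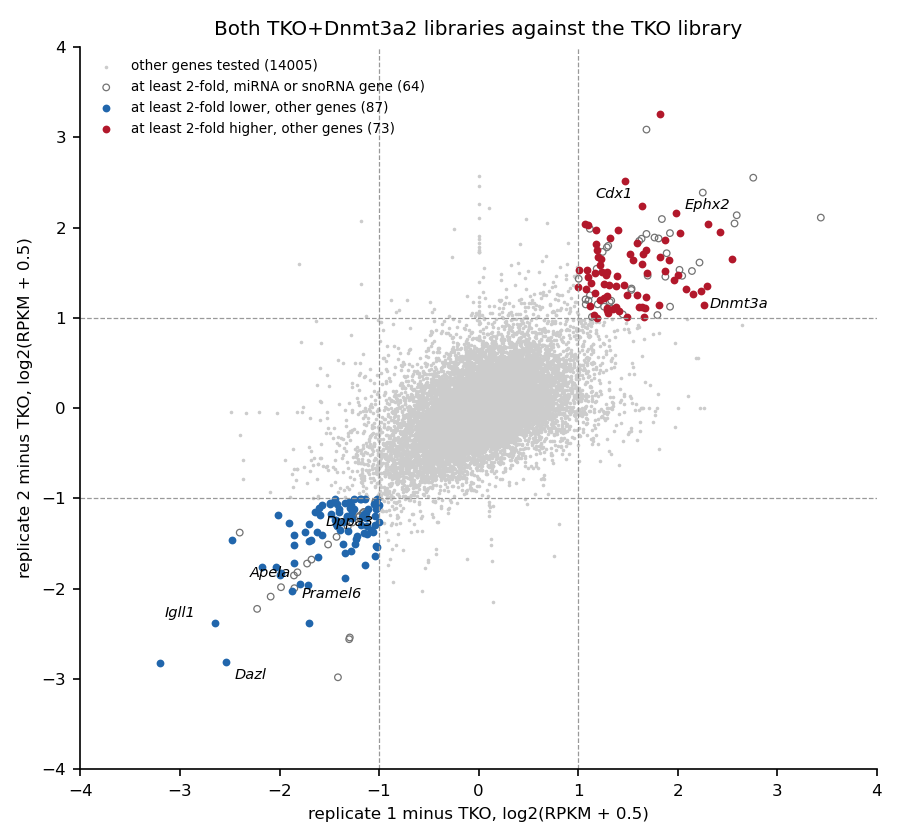
Difference of TKO+Dnmt3a2 replicate 1 from TKO (horizontal axis) and of replicate 2 from TKO (vertical axis), in log2(RPKM + 0.5), for the 14229 genes tested. Dashed lines mark 2-fold, the 87 blue and 73 red points are the genes at least 2-fold lower or higher in both libraries, and open circles are miRNA and snoRNA genes, and both axes share the TKO library.

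Several germ cell and early embryonic genes were among those with the largest lower values, with Dazl first. Dazl, an RNA-binding protein that germ cells need for translation, stood at 42.2 RPKM in TKO and at 6.87 and 5.55 RPKM in the TKO+Dnmt3a2 libraries, below the 8.73 RPKM of WT. The difference from TKO was −2.68 ± 0.45 (SE; limma, adjusted p = 0.464). Asz1, a component of the piRNA pathway, stood at 2.95 RPKM in TKO and at 0.452 and 0.550, with 0.0880 in WT. Pramel6 and Pramel7 are neighbouring genes of the PRAME family, expressed in the inner cell mass and in ground-state ES cells. Pramel6 stood at 6.11 RPKM in TKO and at 1.30 and 1.12, and Pramel7 at 4.77 and at 0.817 and 0.964. In WT both were at or under 0.138 RPKM, so the add-back libraries lay between WT and TKO. Dppa3 (Stella), a maternal and germ cell factor that limits methylation by restraining Uhrf1, stood at 118 RPKM in TKO, 38.1 and 45.3 in TKO+Dnmt3a2 and 11.7 in WT. Its difference from TKO was −1.50 ± 0.19 (SE; limma, adjusted p = 0.324, tied for the lowest of all genes). Dazl, Asz1, Pramel6, Pramel7 and Dppa3 were also below TKO in both TKO+Dnmt3a1 libraries and in TKO+Dnmt3b1, so lower values were not particular to Dnmt3a2. Dppa3 stood there at 37.2, 39.0 and 29.6 RPKM, and Dazl at 7.30, 15.9 and 29.0. The Dppa and Pramel genes as a list were divided: of 9 tested, 4 were lower than TKO in both libraries (3 of the 4 at least 2-fold) and 1 was higher, with a median of −0.05.

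The 250 bases before the RefSeq transcription start of Dazl, Asz1, Pramel6 and Pramel7, and of the imprinted gene Nnat described further on, are shown because CpGs are the sites the enzyme acts on. The sequences are from RefSeq (GRCm38.p6, 5′ to 3′ on the gene's strand), CpGs are in capitals, and no methylation was measured here. Dazl (chr17:50293621-50293870, minus strand) and Asz1 (chr6:18109062-18109311, minus strand) have 20 and 15 CpGs in this window.
Dazl: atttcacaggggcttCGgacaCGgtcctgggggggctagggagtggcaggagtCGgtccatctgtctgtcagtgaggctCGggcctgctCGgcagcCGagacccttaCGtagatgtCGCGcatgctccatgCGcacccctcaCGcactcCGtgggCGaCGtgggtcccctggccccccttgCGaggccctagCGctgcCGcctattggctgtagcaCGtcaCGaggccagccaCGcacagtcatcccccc
Asz1: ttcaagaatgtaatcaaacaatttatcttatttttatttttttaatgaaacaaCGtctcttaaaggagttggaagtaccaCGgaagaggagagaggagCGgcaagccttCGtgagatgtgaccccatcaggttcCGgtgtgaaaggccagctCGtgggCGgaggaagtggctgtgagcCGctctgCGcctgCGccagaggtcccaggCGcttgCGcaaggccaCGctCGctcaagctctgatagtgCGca
Pramel6 (chr2:87506315-87506564, plus strand) and Pramel7 (chr2:87492419-87492668, minus strand) have 2 and 1.
Pramel6: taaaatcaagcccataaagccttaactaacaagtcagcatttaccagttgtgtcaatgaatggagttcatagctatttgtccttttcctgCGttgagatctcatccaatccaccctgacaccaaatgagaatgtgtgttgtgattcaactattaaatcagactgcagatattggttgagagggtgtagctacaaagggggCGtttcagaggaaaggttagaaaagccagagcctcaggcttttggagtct
Pramel7: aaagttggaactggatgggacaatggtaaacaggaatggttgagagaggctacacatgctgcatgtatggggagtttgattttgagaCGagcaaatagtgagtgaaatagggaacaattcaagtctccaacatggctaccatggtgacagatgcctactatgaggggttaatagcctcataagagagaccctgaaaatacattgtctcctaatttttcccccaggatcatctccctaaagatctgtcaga
Nnat (chr2:157559828-157560077, plus strand) has 12.
Nnat: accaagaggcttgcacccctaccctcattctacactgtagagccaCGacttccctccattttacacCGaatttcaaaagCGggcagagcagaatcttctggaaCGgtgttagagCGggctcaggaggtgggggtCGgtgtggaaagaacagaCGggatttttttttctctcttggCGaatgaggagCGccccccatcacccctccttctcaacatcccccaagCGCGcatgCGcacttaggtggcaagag
Over all 32851 RefSeq promoters of the table, windows of 250 bases had a median of 6 CpGs, 27.3% had 15 or more and 29.0% had 2 or fewer, with CG searched as letters and the same on both strands. Among the 13771 tested genes other than small RNAs, the 79.4% with an entry had a median of 16, with an interquartile range of 9 to 22, and the windows of Dazl and Asz1 lie within that range. Of the 87 genes at least 2-fold lower in both libraries, 75.9% had an entry, with a median of 12 CpGs. Of the 73 higher genes, 69.9% had one, with a median of 6. The differences between these medians were not tested.

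As a group, the germ cell genes did not move one way. Of the 29 germ cell genome-defence genes tested, 15 were higher than TKO in both libraries and 11 lower, 3 of them at least 2-fold in each direction (median 0.19), and 0 passed the test. Beside Dazl and Asz1, the tubulin gene Tuba3b was lower, at 1.94 and 1.92 RPKM against 4.55 in TKO. Higher in both were Mael, a piRNA pathway protein (8.68 and 13.03 RPKM against 3.17), the testis-specific transcription factor subunit Taf7l (2.66 and 3.27 against 0.949) and Cox7b2 (8.37 and 12.6 against 3.39). Mael, like Zcwpw1, was lower in TKO than in WT, where it stood at 11.9 RPKM. Of the 25 meiosis genes, 10 were higher in both libraries and 5 lower (median 0.08, from −0.03 in replicate 1 and 0.28 in replicate 2). Stra8, the retinoic acid target that licenses meiosis, stood at 62.5 and 80.7 RPKM against 26.5 in TKO and 28.5 in WT. Zcwpw1, a reader of meiotic histone marks, stood at 18.7 and 18.3 RPKM against 7.54 in TKO and 24.8 in WT, and Hormad1 at 18.8 and 26.6 against 11.9. Dmrt1, a transcription factor of the male germ line, stood at 12.5 RPKM in TKO and at 37.5 and 40.1 RPKM, a difference of 1.60 ± 0.18 (SE; limma, adjusted p = 0.324). The germ cell transcription factor gene Sohlh2, outside the lists and picked after its values were seen, stood at 4.71 and 3.10 RPKM against 12.7 in TKO and 17.6 in WT.

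Genes of the primitive endoderm, the extraembryonic lineage next to the epiblast, were lower together. Of the 18 members tested, 16 were lower than TKO in both libraries and 0 were higher, with a median of −0.66. Over all genes tested, 33.0% were lower in both and 33.7% higher, with a median of 0.02. Cubn, the endocytic receptor cubilin, stood at 7.61 RPKM in TKO and at 1.75 and 2.34 RPKM in the add-back. Dab2, its endocytic adaptor, stood at 12.2 and at 4.34 and 4.46, the basement membrane laminin Lama1 at 22.3 and at 9.72 and 9.60, and the proteoglycan Srgn at 16.03 and at 6.45 and 7.71. For each of these 4 genes both replicates lay under TKO and above WT, whose values were 0.270, 1.33, 4.20 and 1.95 RPKM. The lineage factors Gata6 (4.53 and 5.36 RPKM against 7.30 in TKO) and Gata4 (3.83 and 5.32 against 6.39), named after their values were seen, were lower by less. None of the 18 passed limma's test, and 8 were at an unadjusted p under 0.05. The list's median was −0.68 with quantile normalization and −0.55 with chromosome medians removed. Against TKO+Dnmt3a1 the list had a median of −0.02, so the lower values were shared with the long isoform. Against TKO+Dnmt3b1 it was −0.99. The single TKO library stood above WT by a list median of 1.62.

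X-linked genes of the Xlr and Mage families, expressed in germ cells and placenta, were also lower in the add-back. Of 17 tested, 15 were lower than TKO in both libraries and 1 higher, with a median of −0.65. Against TKO+Dnmt3a1 and TKO+Dnmt3b1 the list medians were −0.1 and 0.04, so the lower values were not particular to Dnmt3a2. The single TKO library stood above WT by a list median of 2.38. Magea3 stood at 1.10 RPKM in TKO and at 0.157 and 0.0330, Xlr5a at 3.15 and at 0.845 and 1.05, and Xlr5b at 1.08 and at 0.231 and 0.228. All 3 were listed at 0 in WT. Under about 1 RPKM few reads stand behind a value, so the distance of the add-back from WT is uncertain, most of all for Magea3 and Xlr5b. Xlr3a stood at 25.7 RPKM in TKO, 12.6 and 20.8 in TKO+Dnmt3a2 and 0.872 in WT. Reads of Xlr copies cannot be told apart, so each Xlr value is uncertain. The X-linked homeobox genes of the Rhox cluster were divided: of 7 tested, 2 were higher in both (Rhox6 and Rhox9) and 4 lower (median −0.26). Rhox6 stood at 17.0 RPKM in TKO and at 32.4 and 30.3, and Rhox9 at 12.8 and at 22 and 17.8, while Rhox1 stood at 12.3 and at 8.51 and 9.60. On the X chromosome 14 of 505 genes tested (2.77%) were at least 2-fold lower in both libraries, against 0.773% of all genes, miRNA genes included.

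The other genes with the largest lower values belong to no single list. Igll1 and Vpreb1 encode the surrogate light chain of early B cells and lie close together on chromosome 16. Igll1 stood at 6.72 RPKM in TKO and at 0.651 and 0.886 (−2.51 ± 0.32, SE; limma, adjusted p = 0.324), and Vpreb1 at 6.86 and at 1.76 and 2.15. Apela, a peptide hormone of early embryos and ES cells, stood at 39.3 RPKM in TKO and 38.3 in WT and at 11.6 and 9.72 in the add-back (−1.84 ± 0.20, SE; limma, adjusted p = 0.324). Here TKO stood near WT and the add-back lay below both. Apela was lower still in TKO+Dnmt3a1 (6.01 and 5.32 RPKM) and in TKO+Dnmt3b1 (8.52 RPKM). The transcriptional coactivator gene Cited1 stood at 10.7 RPKM in TKO and at 3.16 and 3.09, and the pseudokinase gene Trib2 at 4.83 and at 1.16 and 1.44. Efcab1 was at 1.86 RPKM in TKO and at 0.0770 and 0.196, Timd2 at 2.16 and at 0.0890 and 0.288, the chloride channel gene Clic6 at 3.13 and at 0.545 and 0.440, and the noncoding Srrm4os at 3.16 and at 0.426 and 0.533. In these 4 the add-back values are close to those of WT, which ran from 0 to 0.406 RPKM. Every gene from Igll1 to Srrm4os also stood below TKO in both TKO+Dnmt3a1 libraries and in TKO+Dnmt3b1. The direction of these differences, which share the single TKO library, was thus not particular to Dnmt3a2.

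Among the genes with the largest higher values, several were near WT in the add-back and low in TKO. Ephx2, soluble epoxide hydrolase, stood at 3.07 RPKM in TKO, 13.6 and 15.4 in TKO+Dnmt3a2 and 17.2 in WT. Cd37, a leukocyte tetraspanin, stood at 2.65, at 11.1 and 10.9, and at 9.91 RPKM in the same order. The transglutaminase gene Tgm1 stood at 1.64 RPKM in TKO and at 6.24 and 6.47, and the caudal homeobox gene Cdx1 at 0.936 and at 3.97 and 6.28, with 4.91 and 5.72 in WT. Gli1, the transcription factor and target of Hedgehog signalling, stood at 5.90 RPKM in TKO and at 25.2 and 17.3, with 12.1 in WT. Nnat, an imprinted gene expressed from the paternal copy, stood at 5.09 RPKM in TKO and at 15.6 and 17.7, with 9.39 in WT (1.61 ± 0.20, SE; limma, adjusted p = 0.324). For Gli1 and Nnat the add-back thus stood above WT as well as TKO. Slc23a1, a vitamin C transporter, was low in TKO (0.584 RPKM) and WT (0.487), with 3.91 and 3.66 in the add-back. Dhrs4, a carbonyl reductase (6.13 RPKM in TKO, 6.26 in WT, 20.2 and 19.5), the zinc finger gene Zfp951 (2.02, 2.77, 8.99 and 7.35) and Zscan5b (0.794, 0.542, 3.40 and 4.09) likewise stood above both TKO and WT. Mep1b, Gjb1 and Bnipl were also higher, with 0.385, 0.636 and 1.26 RPKM in TKO and from 2.28 to 9.60 RPKM in the add-back. Bnipl differed most between the replicates (4.39 and 9.60). Every gene from Ephx2 to Bnipl also stood above TKO in both TKO+Dnmt3a1 libraries and in TKO+Dnmt3b1. The direction of these differences, which share the single TKO library, was thus not particular to Dnmt3a2.

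**Figure D2:**
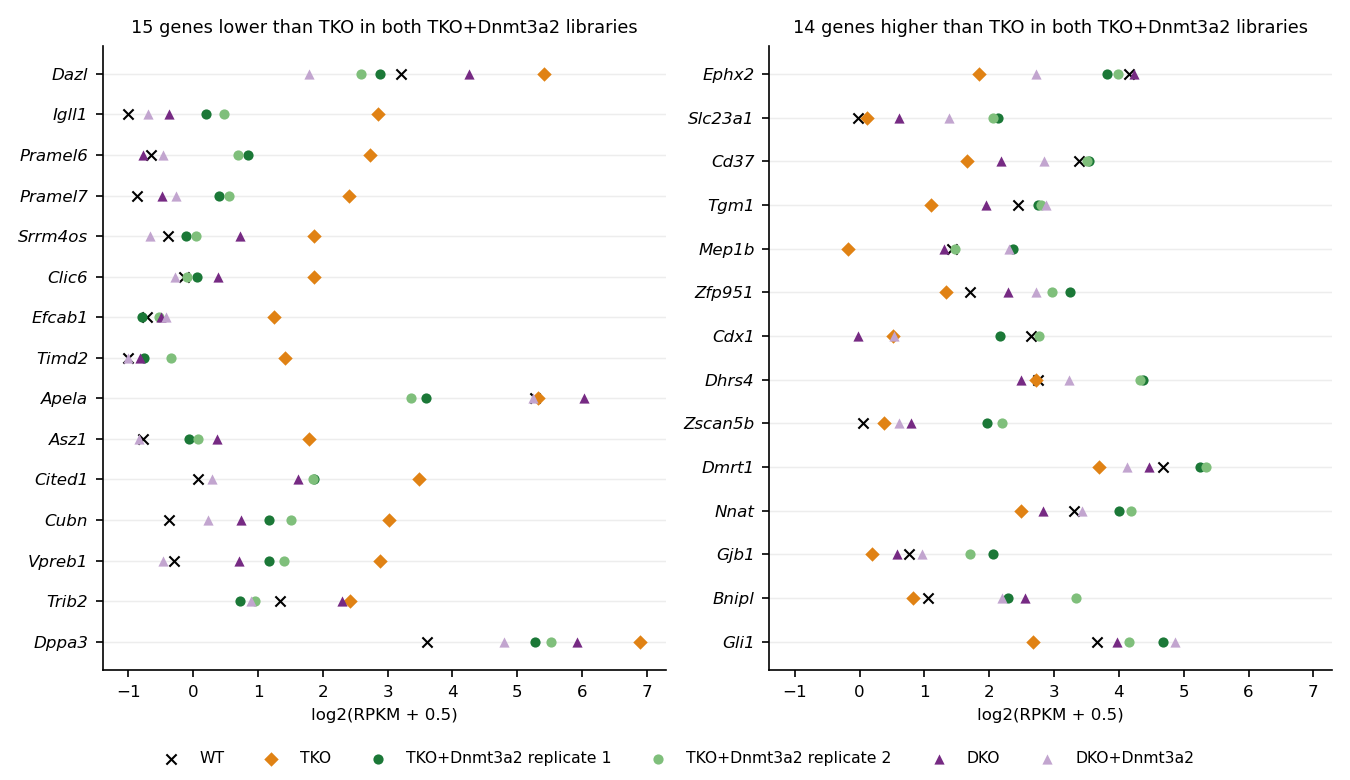
Levels of the 15 lower (left) and 14 higher (right) named genes in 6 single libraries, in log2(RPKM + 0.5), 1 point per library. In every gene on the left TKO (orange diamond) lies above both TKO+Dnmt3a2 libraries (green), and in every gene on the right below them, as the choice of the genes sets. Black crosses give WT, and triangles give DKO and DKO+Dnmt3a2.

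By the naming rule as written, miRNA and small RNA genes would have taken 11 of the 15 places among the higher genes and 7 among the lower. The higher ones were Mir6999, Mir6925, Mir6381, Snord93, Mir6927, Mir7648, Mir7089, Mir7036, Mir6992, Mir6989 and Mir7091, and the lower ones Mir7000, Mir6997, Mir5129, Mir7119, Mir6979, Scarna2 and Mir3103. Mir6999, the first of them, corresponded to 0 reads in TKO and 4 and 4 in the add-back, and Mir7000 to 3 reads in TKO and 0 and 0. Mir7036 had the most reads, with 2 in TKO and 8 and 10. PolyA libraries do not measure mature miRNAs, and these genes were passed over in favour of the next in rank, a step added after their values were seen.

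Among pluripotency genes the differences were small and divided. Of 26 naive pluripotency genes, 9 were higher in both libraries and 8 lower (median −0.05). Nanog stood at 238 and 231 RPKM against 406 in TKO and 214 in WT, and Gdf3 at 33.2 and 25.4 against 47.5. Klf2 stood at 116 and 109 RPKM against 76.7 in TKO, and Tbx3 at 20.6 and 16.3 against 11.6. Of 19 formative and primed epiblast genes, 7 were higher in both and 5 lower (median 0.05). Sox3 was lower (3.46 and 3.06 RPKM against 7.64), as was Zic2 (11.01 and 7.73 against 19.4), while Otx2 was low in all 3 libraries (0.950 and 0.954 against 0.585, with 7.60 in WT). In the 2-cell-like list, which marks the rare ES cells resembling the embryo at the 2-cell stage, 14 of 19 were higher in both libraries and 2 lower (median 0.33, from 0.33 in replicate 1 and 0.62 in replicate 2). Their levels stayed low: Zscan4d stood at 0.850 and 1.62 RPKM against 0.478 in TKO and 5.94 in WT, and Usp17le at 1.20 and 1.05 against 0.323 and 2.94. Of the 2 that were lower, Tmem92 was at 0.417 and 0.921 RPKM against 2.94 and Ubtfl1 at 0.115 and 0.152 against 0.159. Zscan4 and Usp17l copies share reads.

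Signalling and lineage lists showed few members beyond 2-fold. Of 16 FGF-ERK genes 7 were higher in both and 4 lower (median 0.20, from 0.37 in replicate 1 and 0.03 in replicate 2), with the feedback inhibitor Spry2 at 46.8 and 32.3 RPKM against 17.5. Myc stood at 33.4 and 11.8 RPKM against 9.78, a difference that rests on replicate 1. Of 15 BMP pathway genes 6 were higher in both and 5 lower (median −0.07), with the target genes Id1 (18.8 and 12.5 RPKM against 8.82) and Id3 (21.2 and 17.9 against 10.3) among the higher. The Nodal list had 7 of 15 higher and 3 lower (0.14), the mesoderm list 4 of 11 and 3 (0.08), and the neural list 2 of 11 and 5 (−0.21, with Pax6 at 1.43 and 0.959 RPKM against 3.02). In the trophoblast list 8 of 18 were higher and 5 lower (0.11), so the list as a whole was divided. The keratin genes Krt7, Krt8 and Krt18 were among its higher members and do not stand for the list. Krt7 stood at 6.32 and 7.32 RPKM against 2.31, Krt8 at 27.5 and 27.1 against 11.6, and Krt18 at 33.6 and 41.9 against 21.1. Of 28 Hox genes 9 were higher in both and 6 lower (0.17, from 0.52 in replicate 1 and −0.17 in replicate 2), and of 33 Polycomb subunits 9 and 13 (−0.12). The lists of retroelement silencing (8 of 25 higher, 7 lower, 0.03), p53 targets (6 of 21 and 6, −0.02) and glutathione enzymes (11 of 22 and 8, 0.16) were likewise divided. In all 31 lists limma called 0 members, with between 0 and 8 members of a list at an unadjusted p under 0.05.

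Imprinted genes were divided too. In the Dlk1-Dio3 cluster on chromosome 12, whose noncoding RNAs come from the maternal copy, 6 of 10 were lower in both libraries and 1 higher (median −0.34, and −0.14 with chromosome medians removed). Rian stood at 46.3 and 46.1 RPKM against 64.8 in TKO and 27.1 in WT, and AF357359 at 34.3 and 40.3 against 61.5. Of 21 genes tested in the maternally expressed list, which shares Meg3 with the cluster list, 7 were higher in both and 8 lower (0.04). Phlda2 stood at 43.5 and 52.99 RPKM against 24.3, H19 at 313 and 342 against 246, Copg2 at 27.2 and 25.8 against 52.0, and Grb10 at 19.2 and 15.6 against 31.4. Of 23 genes tested in the paternally expressed list, which shares Dlk1 with the cluster list, 8 were higher in both and 7 lower (0.06). Nnat was the highest by difference and Nap1l5 (0.916 and 0.676 RPKM against 3.09) the lowest, followed by Mest (58.3 and 37.1 against 91.4). Copg2, Nap1l5 and Mest lie on chromosome 6.

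**Figure D3:**
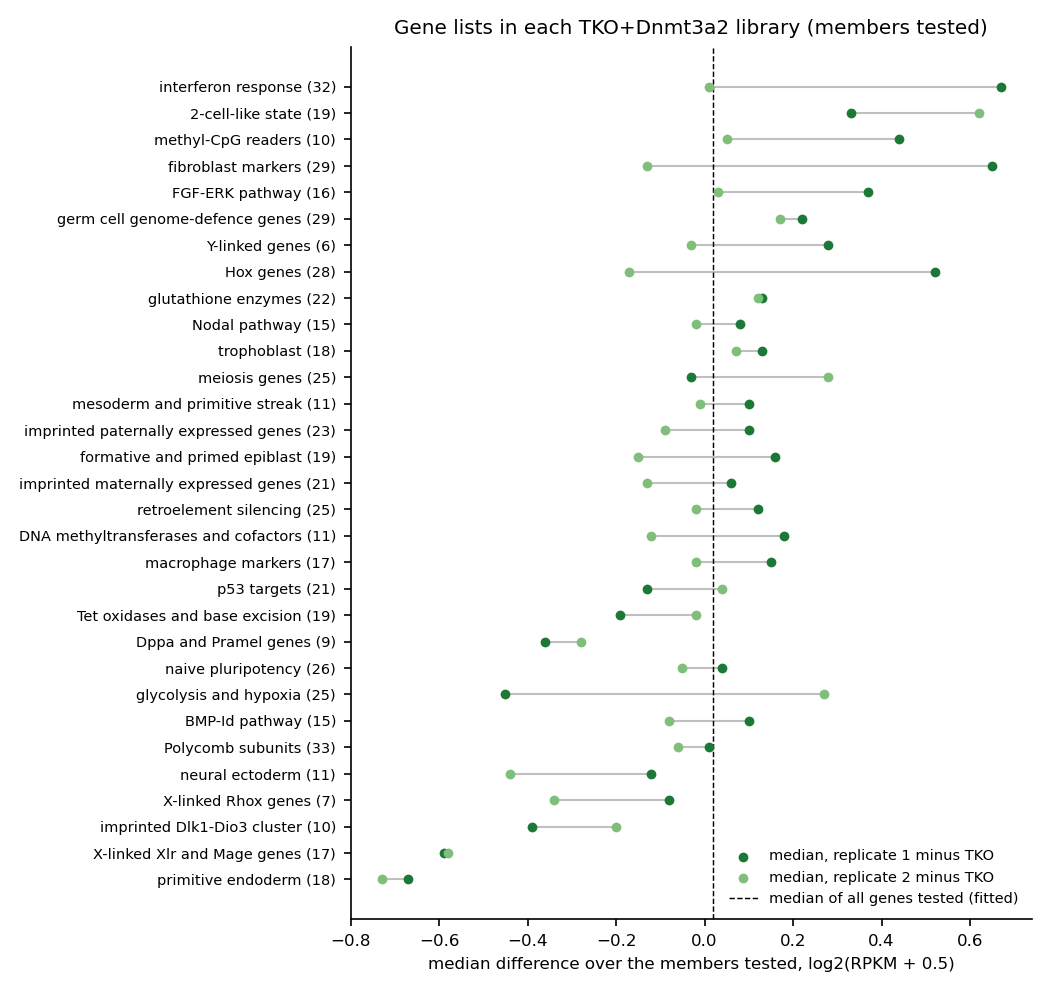
Median difference of each gene list from TKO in replicate 1 (dark green) and replicate 2 (light green), in log2(RPKM + 0.5), with the members tested in brackets and the lists ordered by fitted median. The primitive endoderm and Xlr and Mage lists lie below TKO in both replicates, while the interferon, fibroblast, Hox and glycolysis lists differ between the replicates. The dashed line is the median of all genes tested.

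Several list medians were unlike in the 2 replicates. The interferon-response genes had a median of 0.67 in replicate 1 and 0.01 in replicate 2, with Usp18 at 13.4 and 2.55 RPKM (3.02 in TKO) and Ifit1 at 9.24 and 2.04 (2.74 in TKO). Ifi35 was higher in both, at 12.02 and 10.6 RPKM against 5.31. Fibroblast markers had medians of 0.65 and −0.13, with the smooth muscle proteins Tagln at 66.3 and 41.7 RPKM against 29.4 and Acta2 at 36.3 and 19.8 against 14.6. The glycolysis and hypoxia genes had medians of −0.45 and 0.27, and Bnip3, Aldoc and Ndufa4l2 were among the largest differences in favour of replicate 2. Bnip3, a mitophagy receptor induced by hypoxia, stood at 42.1 and 168 RPKM (85.3 in TKO), the aldolase Aldoc at 7.35 and 29.7, and Ndufa4l2 at 8.97 and 35.9. The neutrophil chemokine gene Cxcl5 (5.41 and 0.619 RPKM), Rnu73b (3.71 and 0.521) and Lce1h (5.12 and 0.936) were other large differences in favour of replicate 1, and Hspb2 (0.469 and 4.28) and Zmynd10 (0.224 and 2.18) in favour of replicate 2. By the rule, which counts miRNA genes, Mir7051, Mir7677, Mir6914 and Mir7013 (replicate 1) and Mir7069, Snora20, Mir7053, Mir6954 and Mir7022 (replicate 2) also belonged here. For Usp18, Ifit1, Cxcl5, Bnip3, Aldoc and Ndufa4l2, 1 replicate lay above TKO and the other below it. Macrophage markers had medians of 0.15 and −0.02, and Cd68 was their only member at least 2-fold higher in both libraries (24.6 and 34.4 RPKM against 10.4). Of the 73 higher genes Cd68 was the 1 fibroblast or macrophage marker, and of the 87 lower genes 0 were. These marker lists hold only 29 and 17 of the 13771 genes tested other than small RNAs. The 6 Y-linked genes tested had medians of 0.28 and −0.03 at low levels, with Uba1y at 0.0190 RPKM in TKO and listed at 0 in both add-back libraries.

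Medians over whole chromosomes were also unlike TKO. The median difference from TKO over the genes of a chromosome was −0.35 and −0.38 on chromosome 6 (replicates 1 and 2), −0.34 and −0.39 on chromosome 8, −0.28 and −0.31 on chromosome 16, −0.19 and −0.21 on chromosome 12, −0.17 and −0.13 on chromosome 11 and −0.07 and −0.16 on chromosome 3. On the others it lay between −0.08 and 0.21. Chromosome 6 held 17 of 653 genes at least 2-fold lower in both libraries (2.6%), chromosome 16 held 9 of 422 (2.13%) and chromosome 8 held 11 of 776 (1.42%), against 0.773% of all genes. The share was highest on the X chromosome (14 of 505, 2.77%), where the medians were −0.03 and −0.08. Among the lower genes named above, Dppa3, Asz1, Tuba3b and Nap1l5 lie on chromosome 6, Apela on 8, Timd2 on 11, Trib2 on 12, and Igll1, Vpreb1, Clic6 and Efcab1 on 16. With the median of each chromosome removed from each library, the differences from TKO were −1.12 for Dppa3, −1.41 for Asz1, −1.49 for Apela, −1.82 for Timd2, −1.37 for Trib2, −2.21 for Igll1 and −1.28 for Vpreb1. Dazl on chromosome 17 and Pramel6 on chromosome 2 were at −2.81 and −2.05 in that setting. Set against WT, TKO stood 0.48, 0.52 and 0.49 higher on chromosomes 6, 11 and 16 and 0.06 higher on chromosome 8, where replicates 1 and 2 stood 0.27 and 0.31 lower (medians −0.27 and −0.31).

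**Figure D4:**
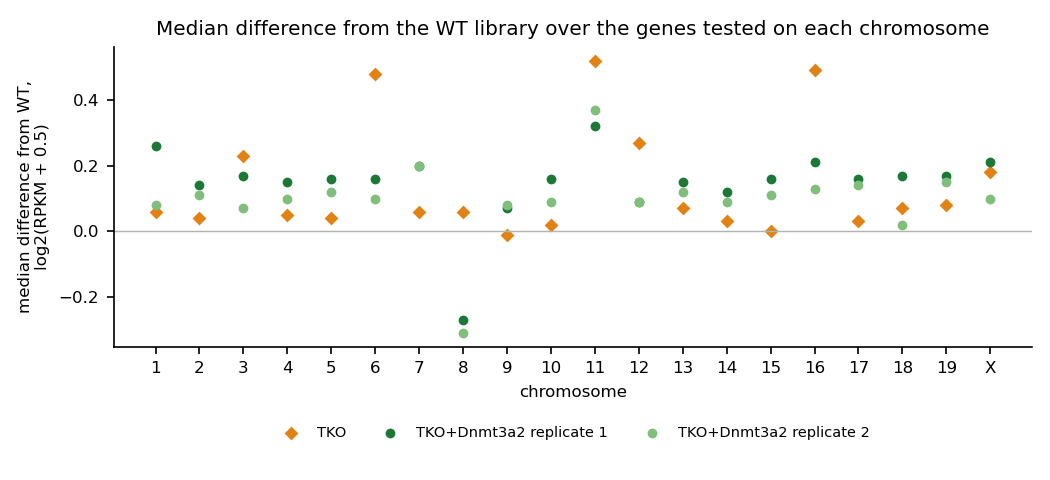
Median difference from the WT library over the genes tested on each chromosome, in log2(RPKM + 0.5), for TKO (orange diamonds) and the 2 TKO+Dnmt3a2 libraries (green circles). TKO stands above both add-back libraries on chromosomes 3, 6, 8, 11, 12 and 16, and the add-back libraries stand below WT on chromosome 8.

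The same enzyme put back into DKO cells, which keep Dnmt1, gives a comparison that shares no library with the first. It has 1 library on each side and thus no replicate check. Of the 87 genes at least 2-fold lower in both TKO+Dnmt3a2 libraries, 76 were also lower in DKO+Dnmt3a2 than in DKO (87.4%, against 58.4% of all such genes tested), and 32 were at least 2-fold lower (36.8%, against 9.54%). Those 32 are 2.4% of the 1314 genes 2-fold lower there. Over all 87 genes the median difference was −0.75, against −0.11 over the genes tested. Dazl stood at 18.7 RPKM in DKO and 2.96 in DKO+Dnmt3a2, Dppa3 at 60.2 and 27.4, Asz1 at 0.796 and 0.0600, Trib2 at 4.42 and 1.36, and Xlr5a at 3.41 and listed at 0. Pramel6, by contrast, was at 0.0870 RPKM in DKO and 0.225 in DKO+Dnmt3a2. Of the 73 higher genes, 46 were higher in DKO+Dnmt3a2 as well (63.0%, against 41.6%), and 3 at least 2-fold (4.1%, against 2.15%). Gli1 stood at 15.2 and 28.8 RPKM, while Ephx2 stood at 18.3 and 6.11. Feeder markers moved with this comparison: in DKO+Dnmt3a2 the fibroblast markers summed to 388 RPKM against 1235 and the macrophage markers to 12.9 against 117, with 8 of the 19 macrophage markers listed at 0 (Emr1, Ptprc, Tyrobp, Aif1, C1qa, C1qb, C1qc and Cd53). Of the 87 lower genes, 0 are in either marker list. Those lists hold only 29 and 17 of the 13771 genes tested other than small RNAs, so few would fall there in any case. The part of feeder cells in these values was not tested.

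A test of the difference between the effects in the 2 parents called 1 of 14229 genes (0.00703%; 1500 at an unadjusted p under 0.05). Lyz2, the lysozyme of macrophages, stood at 28.7 RPKM in TKO and at 30.5 and 25.8 in TKO+Dnmt3a2, but at 63.3 in DKO and 0.0660 in DKO+Dnmt3a2. The difference was 6.79 ± 0.35 (SE; limma, adjusted p = 0.0293), and the value that stands apart is that of DKO+Dnmt3a2. The smallest adjusted p was 0.0565 with a pseudocount of 1 and 0.133 without a trend, and 0 genes were called in both. The count was also 0 without TKO+Dnmt3a2 replicate 1 (0.223) or replicate 2 (0.208) and without TKO+Dnmt3a1 replicate 1 (0.0681) or replicate 2 (0.0682), the smallest adjusted p in brackets. Cox7b2 (8.37 and 12.6 RPKM against 3.39 in TKO, but 0.898 against 12.3 in DKO), Xlr3a (12.6 and 20.8 against 25.7, but 0.169 against 27.7), the metalloproteinase Mmp3 and Mir6935 followed in size and were not called, nor were Mir3069, Mir8112, Mir3094, Mir6896 and Mir6960 in the other direction.

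The 2 isoforms were compared directly, with 2 libraries on each side in the same parent. Limma called 1 gene of 14229 (0.00703%; 611 at an unadjusted p under 0.05). Alg13, an X-linked subunit of the enzyme that adds the second sugar of N-glycan precursors, stood at 6.74 and 7.42 RPKM with Dnmt3a2 and at 59.5 and 49.0 RPKM with Dnmt3a1. The difference was −2.85 ± 0.16 (SE; limma, adjusted p = 0.0444), and the groups did not overlap. Alg13 was at 8.78 RPKM in TKO, 47.3 in TKO+Dnmt3b1 and 66.0 in WT, so the Dnmt3a2 libraries were the only add-back in TKO at the level of the parent. The call was lost without TKO+Dnmt3a2 replicate 1, without TKO+Dnmt3a2 replicate 2, without TKO+Dnmt3a1 replicate 1 and without TKO+Dnmt3a1 replicate 2. Each of these fits left 1 residual degree of freedom instead of 2. Otx2 followed the same order without passing: 0.950 and 0.954 RPKM with Dnmt3a2, 7.06 and 7.14 with Dnmt3a1, 0.585 in TKO and 7.60 in WT (−2.39 ± 0.19, SE; limma, adjusted p = 0.12). The protease inhibitor gene A2m (1.03 and 2.53 RPKM against 7.97 and 11.1) was also lower with Dnmt3a2. Rhox6 stood at 32.4 and 30.3 RPKM with Dnmt3a2 and at 6.62 and 6.35 with Dnmt3a1, Rhox9 at 22 and 17.8 against 5.49 and 3.93, and H19 at 313 and 342 against 89.8 and 109. Mir675, whose hairpin lies within H19, stood at 205 and 255 RPKM against 53.1 and 65.0 and is not independent of it. Neurod1 (3.83 and 3.55 RPKM against 1.15 and 0.409) completes the higher genes, and Mir7083 and Mir6997 the lower. For these uncalled genes the adjusted p ran from 0.12 to 0.903 by limma. Dnmt3a itself had lower values in the Dnmt3a2 libraries, at 21.8 and 11.1 RPKM against 39.4 and 34.2. With 1 figure per gene, the short and the long isoform are scaled alike, so these values do not compare numbers of transcripts. The Dnmt3a value thus moved with the isoform, and the part of enzyme level in the differences above was not tested.

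**Figure D5:**
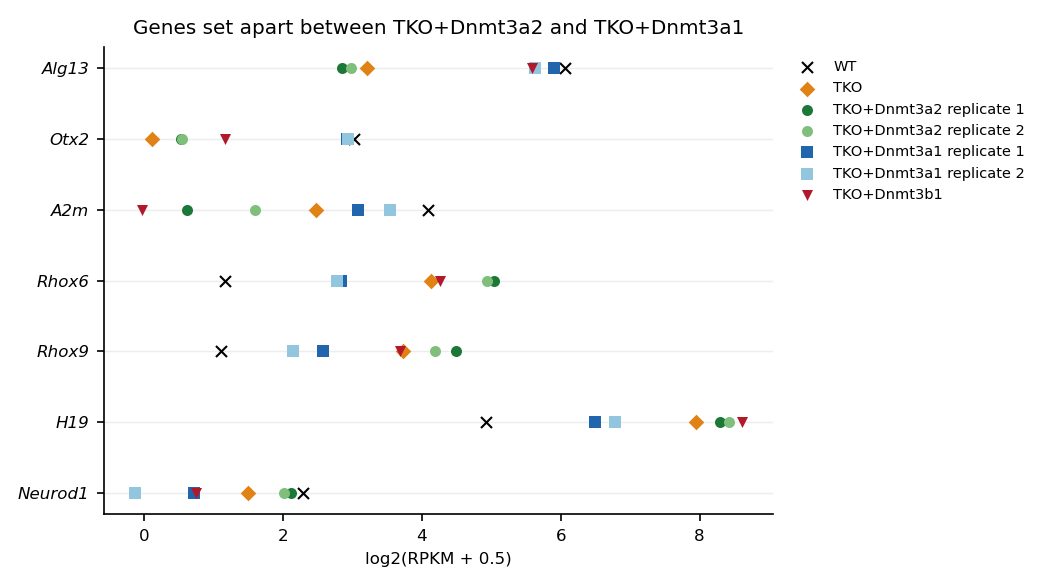
Levels of 7 genes in WT and the 6 libraries of the TKO family, in log2(RPKM + 0.5), 1 point per library. For Alg13 and Otx2 the TKO+Dnmt3a2 libraries (green circles) lie near TKO (orange diamond) and the TKO+Dnmt3a1 libraries (blue squares) near WT (cross), and for Rhox6, Rhox9 and H19 the TKO+Dnmt3a1 libraries lie below TKO and the TKO+Dnmt3a2 libraries above it.

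Against Dnmt3b1 put back into the same parent, 0 genes passed by limma (0%), the lowest adjusted p being 0.0729, and 2699 had an unadjusted p under 0.05. That count depends on the processing: it was 97 with a pseudocount of 1 (95 lower), 163 without a filter on low values (163 lower) and 212 with chromosome medians removed (203 lower). In TKO+Dnmt3b1 the fibroblast markers summed to 4280 RPKM and the macrophage markers to 329. The fibroblast list had a median of −1.90 and the macrophage list one of −2.38 in TKO+Dnmt3a2 relative to it. The largest lower values were Lce1g (1.37 and 0.477 RPKM against 20.2), the BMP antagonist Grem1 (9.38 and 2.32 against 73.3), Dkk2 (1.25 and 0.484 against 17.0), Clec4n (0.724 and 0.546 against 14.5) and Lce1f (1.94 and 0.666 against 21.0). Higher were Ndufa4l2 (8.97 and 35.9 RPKM against 2.04) and the genes of Mir6999, Mir6516, Mir6941 and Mir6925. The part of feeder cells in these differences was not tested.

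Against wild type, 93 genes of 14229 were called (0.654%; 2903 at an unadjusted p under 0.05), 75 higher and 18 lower in TKO+Dnmt3a2. Ndufs5, which encodes a part of respiratory complex I, went from 0.903 RPKM in WT to 31.4 and 31.3 (4.50 ± 0.20, SE; limma, adjusted p = 0.0131) and stood at 28.4 in TKO. Smtnl1 rose from 0.451 to 17.3 and 19.14 RPKM, the apolipoprotein gene Apoa2 from 0.295 to 13.2 and 13.96, the ISG15-conjugating enzyme Ube2l6 from 1.14 to 23.3 and 33.7, and the X-linked deubiquitinase Usp26 from 1.10 to 18.7 and 26.8. In TKO, which shares these knockouts, the same 4 genes stood at 13.9, 6.41, 27.9 and 28.4 RPKM. Among the lists, the called members that rose were Dnmt3l, Dppa3, Cox7b2, Rhox1, Rhox6, Rhox9, Xlr3a, Xlr3c, Pnma5, H19, Ifi35, Ube2l6, Id2 and Gstp1. Rhox6 went from 1.73 RPKM in WT to 32.4 and 30.3 (3.83 ± 0.21, SE; limma, adjusted p = 0.0161) and H19 from 29.8 to 313 and 342. Those that fell were Dnmt1, Otx2, Fgf15 and Zfp42, the naive pluripotency gene Rex1, which went from 222 RPKM to 42.2 and 49.1. Zfp42 was already at 47.3 RPKM in TKO and lies on chromosome 8. The largest falls were those of Triml1 (67.4 RPKM in WT, 5.83 and 7.01 in the add-back), Kbtbd11 (5.58, 0.131 and 0.162), Alg13, Triml2 (111, 11.02 and 13.5) and Dnmt1. Triml1, Triml2 and Kbtbd11 lie on chromosome 8, where the add-back libraries stood below WT, and stood at 7.40, 17.7 and 0.174 RPKM in TKO. Apela was among the calls and fell from 38.3 RPKM (−1.80, adjusted p = 0.0392 by limma). Dazl (−0.47) and the Pramel genes (1.42 and 1.34) were not called. The median of all genes was 0.141 higher than in WT, and −0.016 with quantile normalization or median ratio scaling. The calls were then 28 higher and 13 lower, and 35 higher and 16 lower. Without a filter on low values they were 3 higher and 35 lower. The calls were lost without TKO+Dnmt3a2 replicate 1, without TKO+Dnmt3a2 replicate 2, without TKO+Dnmt3a1 replicate 1 or without TKO+Dnmt3a1 replicate 2. These fits left 1 residual degree of freedom instead of 2.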

How the data were processed

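The deposited table holds RPKM values made by the authors for 24016 genes in 11 libraries of polyA RNA. Libraries were made with the TruSeq RNA kit v2, per the labels' protocols, which does not mark strand, so overlapping and antisense genes share reads. STAR 2.4.0, bcl2fastq 1.8.4 and build mm9 are given per the submitters' processing notes. The counting tool and gene lengths are not given in the sources used here. Depth was estimated from the spacing of RPKM values of genes of up to 400 nt, at totals where 98.8% to 100% of values of up to 5 reads were whole within 0.05. RPKM are not counts, so limma 3.58.1 (R 4.3.3) was fitted to log2(RPKM + 0.5) of 14229 genes that reached 1 RPKM somewhere among the libraries. The 9 group means over all 11 libraries leave 2 residual degrees of freedom (prior 3.7). Libraries without a replicate, TKO among them, are thus assumed to vary like TKO+Dnmt3a1 and TKO+Dnmt3a2. A call needed a Benjamini-Hochberg adjusted p below 0.05, and the script was tested on simulated data. Chromosomes and names came from RefSeq (GRCm38.p6), where 23961 genes matched.

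The 5 comparisons were fitted with the same model. Named genes were the 15 largest in each direction by the smaller of the 2 library differences, after calls, without predicted or clone names, 5 in other comparisons and up to 4 per list and direction. Of the higher genes, 1 is not reported here. The members, comparisons, lists and this rule were chosen with earlier results of these data known. The 31 lists are described by counts and medians, without a list test. Alternatives changed the pseudocount, low-value filter, scaling, trend, chromosomes and libraries. Replicate numbers 1 and 2 of the 2 Dnmt3a isoforms were not taken to pair libraries.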

Additional observations from a re-analysis of the deposited data

Results flagged for a closer look

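Lyz2 was set apart because the difference that Dnmt3a2 made differed between the 2 parents: 6.79 on the log2 scale (limma, adjusted p = 0.0293), from 28.7 RPKM in TKO and 30.5 and 25.8 in TKO+Dnmt3a2 against 63.3 in DKO and 0.0660 in DKO+Dnmt3a2. Alg13 was set apart because its level differed between the 2 isoforms put back into TKO: −2.85 (limma, adjusted p = 0.0444), from 6.74 and 7.42 RPKM with Dnmt3a2 and 59.5 and 49.0 RPKM with Dnmt3a1. Both calls were lost when any one of the 4 libraries of TKO+Dnmt3a1 and TKO+Dnmt3a2 was left out. Each such fit left 1 residual degree of freedom instead of 2, and the calls against WT were lost as well. The loss was thus not particular to these 2 genes. No explanation of either was tested.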

How the results depend on the processing

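The count of genes called between TKO+Dnmt3a2 and TKO was 0 in every setting run except without a filter, where 30 were called, all lower and listed at 0 in both add-back libraries. The isoform comparison had 0 calls with a pseudocount of 0.1, without a filter, with quantile or median ratio scaling, without a trend, with the 4 libraries alone and without any one replicate (0 to 0). With a replicate block it had 6, but deviations of same-numbered libraries correlated at 0.086 over 2 pairs, so the numbers were not taken as pairs. Against Dnmt3b1 the calls were 97 with a pseudocount of 1, 163 without a filter, 5 with 2 libraries at 1 RPKM required and 212 with chromosome medians removed. Against WT they were 41 with quantile scaling, 51 with median ratio scaling and 45 without a trend, and were lost without any one replicate. Without a filter they were 38, of which 3 were higher and 35 lower, the reverse of the main fit (75 higher and 18 lower). The difference between parents had 0 calls with a pseudocount of 1 or without a trend, 74 without a filter, 2 with 2 libraries required, 3 with chromosome medians removed and 0 to 0 without any one replicate. Genes at least 2-fold apart numbered 404 and 135 with pseudocounts of 0.1 and 1, and 11 at 4-fold, against 224. With replicate 1 or 2 left out, only the 1 remaining library has to stand apart from TKO. The numbers were then 481 and 827. Apart from such changes of the criterion, the cause of these shifts was not tested. For the 49 named genes, 814 of 817 alternative values kept direction and side of the threshold, and the other 3 (Mir7000, Mir7119, Scarna2) passed it without a filter. This was largely set in advance. Nearly all these genes were chosen for differences of the same sign in both libraries. Only the setting without a filter called any gene between TKO+Dnmt3a2 and TKO. Leaving out small RNA genes, a filter on the mean and leaving out both TKO+Dnmt3a1 libraries were chosen after seeing the data. Depth limits genes under about 1 RPKM, where few reads stand behind a value.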
